A study of Mus musculus with 21 samples.

Results

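The mitochondrial carrier family Slc25 was followed through the synthesis and steady-state level of its mRNAs in mouse embryonic stem cells (ESCs) with and without DDX6, an RNA helicase of the decapping and translational repression machinery. Members were taken as the protein-coding genes whose symbol starts with Slc25a. There were 47 of them among 51467 genes in the count table, and 38 were expressed strongly enough to be tested, among 14518 tested genes. The other 9 (Slc25a21, Slc25a27, Slc25a29, Slc25a41, Slc25a43, Slc25a45, Slc25a47, Slc25a48 and Slc25a54) did not reach 3 CPM (counts scaled to the total of the library) in 3 libraries. Of these, Slc25a54 had 0 counts in every library and Slc25a21 had 1 count in all libraries together. The family was chosen by its gene symbols, but also selected on the total RNA counts of Slc25a31 in KO and WT, which were known beforehand. The change of that gene is therefore given as a description without a test, and counts of changed members leave it out and refer to the other 37 tested members.

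The experiment held 7 ESC cultures, of which 3 were wild type (WT) and 4 were Ddx6 knockout (KO), with 2 cultures of each of 2 KO clones. Both clones were made from the WT line with CRISPR-Cas9 at exon 7 of Ddx6, and each is 1 line, so clone and culture are the only units of replication. All cultures, WT included, were grown with serum, LIF and the inhibitors PD0325901 and CHIR99021 and were labelled with 500 µM 4-thiouridine (4sU) for 30 min. Each extract was split: the biotinylated 4sU fraction measures nascent RNA, the rRNA-depleted total RNA measures mRNA level, and the ratio of total RNA to 4sU serves as a measure of mRNA stability.

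Slc25 proteins share a fold of repeated membrane helices and sit in the inner mitochondrial membrane, where they exchange nucleotides, phosphate, carboxylates, amino acids, cofactors and metal ions between the cytosol and the matrix. The ADP/ATP carriers export ATP made by oxidative phosphorylation in exchange for ADP. Slc25a4 is the isoform best known from heart and muscle, Slc25a5 is the isoform of proliferating cells, and Slc25a31 is the isoform of the male germ line, required for spermatogenesis and normally silent in somatic tissue.

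Library totals ranged from 2441639 to 3570192 counts in 4sU and from 5724179 to 7369651 in total RNA, so that 3 counts corresponded to 0.840 to 1.23 CPM in 4sU and 0.407 to 0.524 CPM in total RNA. Total RNA counts of Ddx6, as scaled CPM (CPM divided by a TMM factor that aligns the libraries), were 333, 383 and 391 in WT, 57.2 and 67.7 in clone 1 and 23.1 and 21.5 in clone 2. The ESC genes Pou5f1, Sox2, Nanog, Zfp42, Esrrb, Klf4 and Tfcp2l1 were detected in every library, with a summed level of 4080.0 to 4238 CPM in WT total RNA and 4715 to 4907 CPM in KO. Summed markers of feeder fibroblasts were low in both groups, at 3.14 to 5.34 CPM in WT and 11.3 to 13.1 CPM in KO. Of these, Thy1 (2.37 and 7.41 CPM on average) and Col1a1 (2.17 and 4.85 CPM) were both called higher in KO mRNA, as were 19.5% of all tested genes. In WT 4sU, Thy1 and Col1a1 averaged 1.78 and 1.82 CPM. Both reached 3 CPM in 3 libraries only with the KO libraries, so they were admitted to the test by their KO level. Col1a2 had 0 counts in every WT total RNA library and 2, 1, 1 and 1 in KO. Postn was at 0 in all total RNA libraries, and Lum and Col3a1 were at 0 or 1 count. Summed markers of primitive endoderm were 6.26 to 9.08 and 8.11 to 11.1 CPM, those of trophoblast 13.9 to 18.6 and 14.1 to 19.7 CPM, and those of neural and mesodermal cells 92.6 to 95 and 63.8 to 68.3 CPM. Within the primitive endoderm and trophoblast sums, genes moved both ways. On average, Gata4 (3.56 and 6.16 CPM), Pdgfra (1.18 and 2.45) and Krt7 (1.60 and 3.85) were higher in KO. Sox17 (1.82 and 0.592), Gata6 (0.721 and 0.293) and Eomes (13.8 and 11.9) were lower. Of the ESC genes, Tfcp2l1 was lower in KO (1253 and 982) and the others were higher. The part of these genes in the results was not tested, and in bulk RNA a change in the share of a cell type and a change in RNA per cell cannot be told apart.

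The 3 ADP/ATP carriers differ from each other in their bases, also around the carrier signature. The capitals mark the codons for the run of arginines followed by a run of methionines that distinguishes ADP/ATP carriers, read from the Gencode M21 transcripts, 5′ to 3′ on the coding strand. All 3 windows are exonic and coding on GRCm38, at chr8:46208414-46208443 on the minus strand for Slc25a4, chrX:36797831-36797860 on the plus strand for Slc25a5 and chr3:40722722-40722751 on the plus strand for Slc25a31.
Slc25a4: gacactgttCGTCGTAGGATGATGATGcag
Slc25a5: gacacggttCGCCGTCGTATGATGATGcag
Slc25a31: gacacagttAGAAGACGTATGATGATGcag
The encoded signature is the same in all 3 genes, yet the 18 capital bases differ at 3 positions between Slc25a4 and Slc25a5, at 6 between Slc25a4 and Slc25a31 and at 4 between Slc25a5 and Slc25a31. Over the aligned coding sequence, identity was 78.9%, 70.0% and 71.4% for these pairs, and the longest identical run was 20, 14 and 21 bases. No stretch of 50 bases is shared among the 3 genes. Slc25a5 does share sequence with other genes: 46.6% of the 50-base stretches of its transcript occur in annotated transcripts of 9 other genes, among them the pseudogene Slc25a5-ps. For Slc25a4 and Slc25a31 this share was 0%, and over all 47 members the median was 0% with 5 members above 10%. Matches were sought on both strands, and genes that overlap a member were not set aside, whereas reads were counted by strand.

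Levels of some members also differed between sequencing runs. Per the labels, libraries were sequenced with single-end reads of 50 bases. The libraries of nascent RNA were sequenced again. The methods of the study describe read pairs for these additional rounds, which the labels do not mention, and the second run is called the paired run here. In 4sU, averaged over the 7 cultures, Slc25a5 had 81.8 CPM in the single-end run and 165 CPM in the paired run, a ratio of 2.02. Slc25a4 had 162 and 129 CPM, a ratio of 0.796. Among the members with at least 1 CPM in the single-end run, the paired run over the single-end run lay highest for Slc25a5. The other members with more than 10% of shared stretches went both ways. Slc25a40, with 10.3%, was higher in the paired run, with a ratio of 1.41. Slc25a35, with 25.8%, was also higher there, with 4.61 CPM in the single-end run and 5.26 in the paired run. Slc25a33, with 12.6%, was lower, with 14.5 and 12.1, as was Slc25a36, with 11.8%, which had 139 and 129.5. Whether shared sequence or read layout has a part in the run difference was not tested. The order of Slc25a4 and Slc25a5 in 4sU thus depended on the run, and the level of Slc25a5 in total RNA rests on single-end reads alone.

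**Figure D1:**
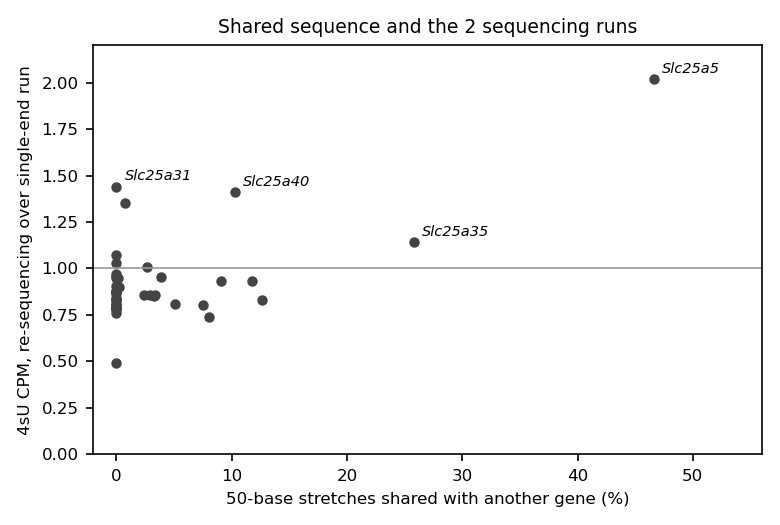
Each point is 1 member with at least 1 CPM in the single-end 4sU run. The horizontal axis gives the percentage of 50-base stretches of its transcript that occur in another gene on either strand. The vertical axis gives the ratio of its mean 4sU CPM in the paired re-sequencing run to that in the single-end run. Slc25a5 lies apart on both axes, at 46.6% and 2.02.

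In WT total RNA, the most abundant members per kilobase of gene length were Slc25a3, the mitochondrial phosphate carrier, at 171 ± 2.57 CPM per kilobase (SD, n = 3), Slc25a5 at 169 ± 3.63, Slc25a4 at 166 ± 3.06 and Slc25a39, a carrier required for mitochondrial glutathione import, at 166 ± 0.305. These neighbours did not differ beyond their spread over cultures. Slc25a13, an aspartate/glutamate carrier, followed at 86.8 ± 2.81. Slc25a31 stood at 0.118 ± 0.0716 CPM per kilobase, and made up 0.0352% ± 0.0212 of the summed level per kilobase of the ADP/ATP carriers.

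Slc25a31 lies on chromosome 3 of GRCm38 from 40708855 to 40726096 on the plus strand. In WT total RNA it was counted 1, 1 and 3 times. In KO total RNA it was counted 54 and 58 times in clone 1 and 62 and 49 times in clone 2. All 4 KO cultures lay far above the 3 WT cultures, which were at or under the floor of 3 counts. From the pooled counts, 223 in KO and 5 in WT, the level in KO was 31.9-fold that in WT, with a 95% counting interval of 13.5 to 99.4, and without WT culture 3 it was 50.8-fold with an interval of 13.9 to 422.

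In 4sU, the counts of Slc25a31 were 3, 4 and 1 in WT, 8 and 13 in clone 1 and 6 and 6 in clone 2. The KO cultures again lay above those of WT, but the pooled ratio was 2.69, with a counting interval of 1.22 to 6.73. The ratio of total RNA to 4sU was 0.272 (0.0700 to 0.943) in WT and 3.24 (2.24 to 4.82) in KO, both as ratios of CPM from pooled counts with exact 95% intervals that cover counting error only. Fitted in the model across all genes, the differences were 4.72 ± 0.42 (log2, SE) in mRNA, 1.20 ± 0.55 in nascent RNA and 3.52 ± 0.89 in the ratio of both. Without WT culture 3 these were 5.32, 0.77 and 4.55, and without WT culture 2 they were 4.47, 1.56 and 2.90. With the single-end or the paired run alone the nascent difference was 0.73 or 1.76 and that of the ratio 3.98 or 2.93. With clone 1 or clone 2 alone they were 4.74 or 4.70 in mRNA and 1.60 or 0.70 in nascent RNA. The difference in mRNA was thus alike in both clones, and the nascent difference rests on few counts.

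**Figure D2:**
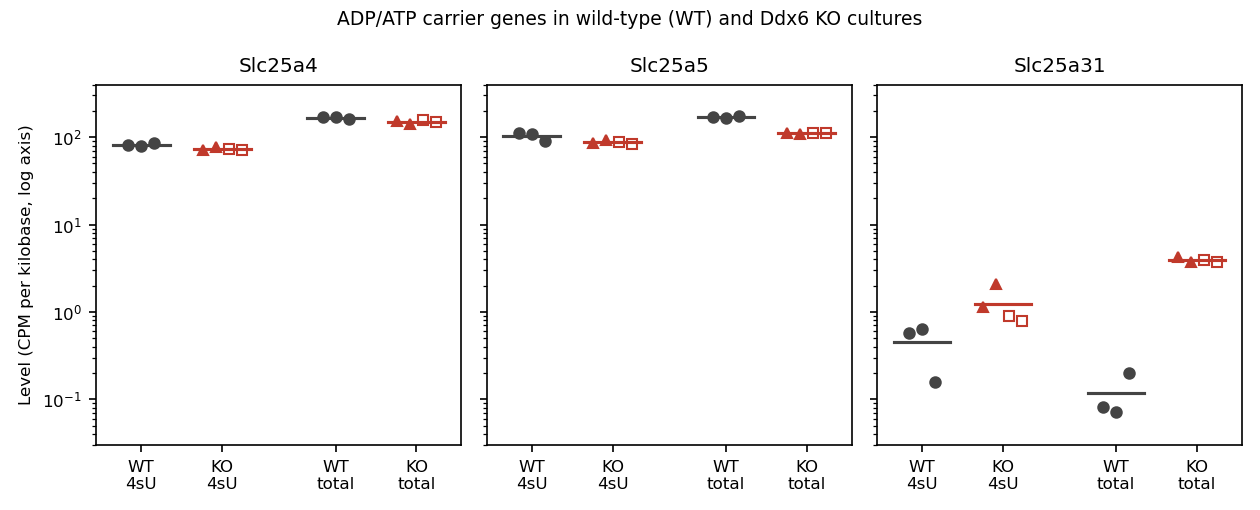
Levels of the 3 ADP/ATP carrier genes in CPM per kilobase on a log axis, for nascent RNA (4sU) and total RNA. Circles are WT cultures, filled triangles clone 1, open squares clone 2 and bars the group means. Slc25a31 in KO total RNA, at 3.89 on average, lies above all WT values of that gene but remains far below Slc25a4 and Slc25a5, whose KO means are below their WT means.

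Slc25a4 and Slc25a5, by far the more abundant ADP/ATP carriers in these ESCs, were lower in KO. Slc25a5 was at 221, 222 and 232 scaled CPM in WT total RNA, at 131 and 128 in clone 1 and at 133 and 131 in clone 2. The groups did not overlap, and Slc25a5 mRNA fell by 0.78 ± 0.06 on the log2 scale (edgeR, adjusted p = 6.1e-17). Slc25a4 was at 342, 347 and 336 scaled CPM in WT and at 285, 258, 288 and 273 in KO, also without overlap, and fell by 0.31 ± 0.05 (edgeR, adjusted p = 3.0e-06).

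Nascent RNA of both genes was lower as well. Slc25a5 was at 148, 148 and 121 scaled CPM in WT 4sU and at 99.3, 107, 101 and 97.2 in KO, and it fell by 0.46 ± 0.07 (edgeR, adjusted p = 8.1e-07). It fell by 0.43 in the single-end run alone and by 0.46 in the paired run alone, and was called in both. Slc25a4 was at 170.1, 164 and 176 scaled CPM in WT and at 126, 139.9, 133 and 129 in KO, and it fell by 0.37 ± 0.07 (edgeR, adjusted p = 1.2e-05). Both remained called when libraries were scaled by library size only, where Slc25a5 fell by 0.26 and Slc25a4 fell by 0.16.

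In stability, the 2 genes had different values. For Slc25a4 the difference in the total-over-4sU ratio was 0.06 ± 0.09 (edgeR, adjusted p = 0.757), whereas that of Slc25a5 fell by 0.32 ± 0.10 (adjusted p = 0.0194). The call for Slc25a5 was lost in 8 of 20 alternatives, among them the fit without WT culture 3, where it fell by 0.20 (adjusted p = 0.225). Whether the genes changed unequally was tested through their ratio. Slc25a4 over Slc25a5 per kilobase in total RNA was 0.981 ± 0.0397 (SD, n = 3) in WT and 1.36 ± 0.0465 (n = 4) in KO, without overlap (exact permutation test, two-sided, p = 0.0571, the smallest that 3 against 4 cultures allow). In 4sU the ratio was 0.796 ± 0.119 and 0.843 ± 0.0167 (exact permutation test, p = 0.400).

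The summed level of all 3 ADP/ATP carriers in total RNA was 335 to 336 CPM per kilobase in WT and 251 to 269.6 in KO. No test is given for the sum, because it includes the total RNA counts of Slc25a31 on which the family was selected. Slc25a31 contributed 1.41% to 1.56% of that sum in KO, against 0.0214% to 0.0596% in WT. The KO level of Slc25a31, at 3.89 ± 0.234 CPM per kilobase, was thus small beside the difference in the sum.

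Over the whole family, changes in mRNA were common, as they were over all genes. Of 37 members, 21 (56.8%) were called at an adjusted p below 0.05 in total RNA, 10 higher and 11 lower, against 50.5% of the 14518 tested genes (19.5% higher and 31.0% lower). The median log2 difference was -0.13 over the members and -0.10 over all genes. In nascent RNA 12 of 37 members were called, 8 higher and 4 lower, against 41.6% of all genes (20.6% higher and 21.0% lower), with medians of 0.04 and 0.00106. In stability 8 of 37 were called, 2 higher and 6 lower, against 12.4% of all genes (3.78% higher and 8.60% lower), with medians of -0.13 and -0.09. The split between directions shifts with the scaling: by library size only, 16 members were called higher and 2 lower in nascent RNA and 12 higher and 7 lower in mRNA, with medians over all genes of 0.21 and 0.06. Scaling within each assay gave 11 higher and 9 lower in mRNA.

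Large changes were few. With an absolute log2 fold change above 1 as well, 4 members remained in mRNA, 1 in nascent RNA and 1 in stability, which is 10.8%, 2.70% and 2.70% of the members against 10.1%, 10.9% and 1.08% of all genes. Values of KO and WT cultures did not overlap for 22 members in mRNA (10 higher, 12 lower), 12 in nascent RNA (8 higher, 4 lower) and 14 in stability (3 higher, 11 lower). Over all genes this held for 52.4% in mRNA (20.4% higher and 32.0% lower), 41.7% in nascent RNA (20.5% higher and 21.2% lower) and 22.9% in stability (7.45% higher and 15.5% lower).

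**Figure D3:**
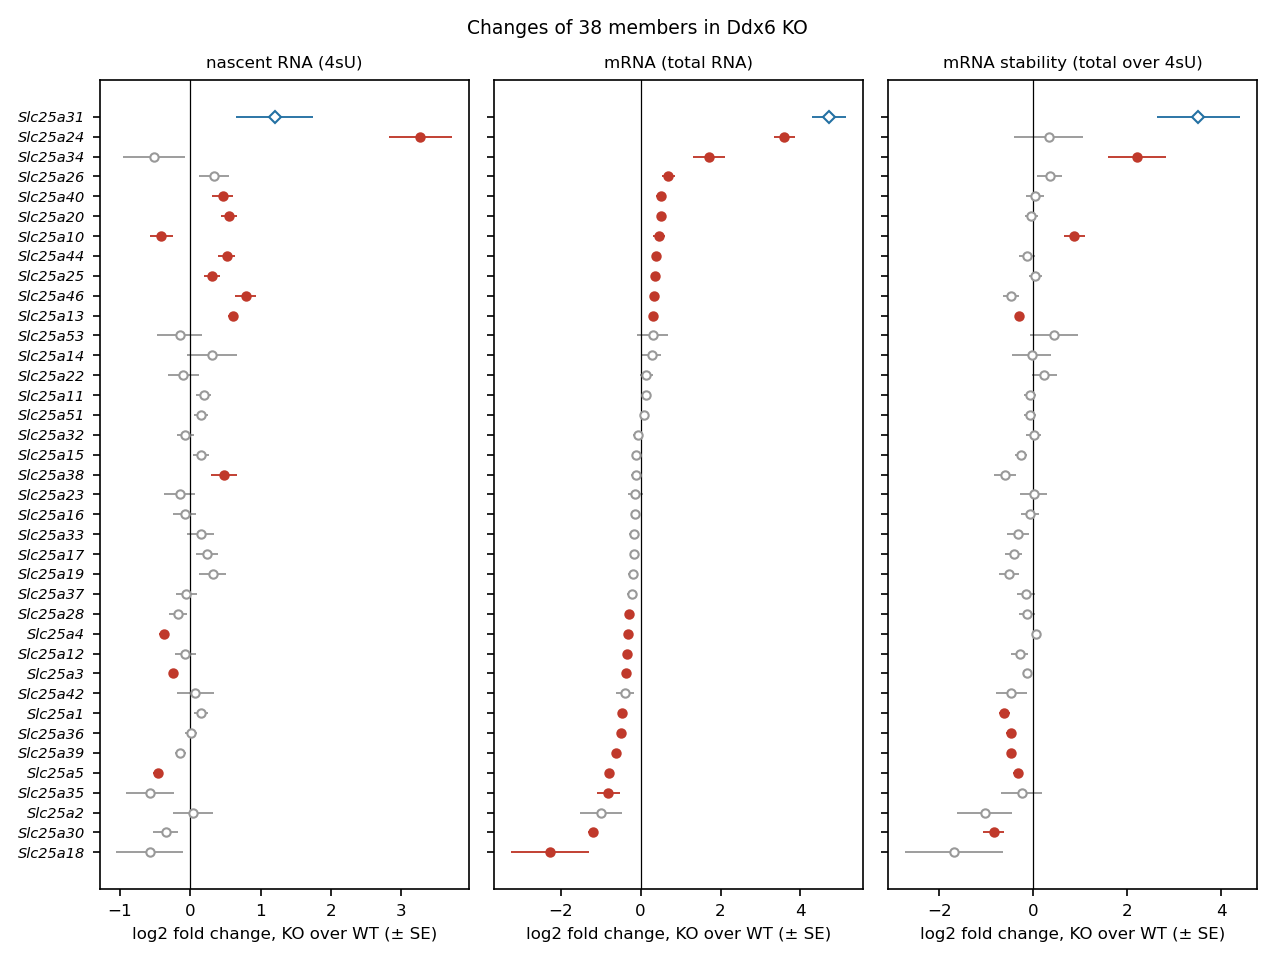
Log2 fold changes of KO over WT with their SE for the 38 tested members in nascent RNA, mRNA and mRNA stability, ordered by the change in mRNA. Filled red points passed an adjusted p below 0.05, open grey points did not, and the open diamond is Slc25a31, shown without a test. Slc25a24 lies far to the right in nascent RNA and mRNA (3.27 and 3.60), whereas Slc25a34 does so in mRNA and stability (1.71 and 2.22).

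Among the carriers of ATP-Mg and phosphate, 4 of 5 members were tested, of which 2 rose and 1 fell in both nascent RNA and mRNA and none was called in stability. Over all genes, 20.6% were called higher and 21.0% lower in nascent RNA, and 19.5% and 31.0% in mRNA. In stability, 12.4% of all genes were called. Slc25a24, a calcium-regulated ATP-Mg/phosphate carrier that adjusts the adenine nucleotide pool of the matrix, had the largest difference of the tested members in nascent RNA, and the largest in mRNA after Slc25a31. It was counted 3, 5 and 19 times in WT total RNA and 125, 144, 134 and 112 times in KO, and 1, 1 and 5 times in WT 4sU against 33, 21, 32 and 37 in KO. WT culture 3 stood above the other WT cultures in both assays, and all KO cultures lay above it. No WT library of Slc25a24 reached 3 CPM (the highest was at 2.70), so the gene passed the filter through its KO libraries alone. Its rank and its p-values thus belong to a gene that was admitted by its KO level.

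Slc25a24 mRNA rose by 3.60 ± 0.26 on the log2 scale (edgeR, adjusted p = 7.3e-18) and its nascent RNA by 3.27 ± 0.45 (adjusted p = 2.1e-08), with a difference in stability of 0.33 ± 0.74 (adjusted p = 0.847). Over the fits that leave out 1 culture, the differences ranged from 3.26 to 4.67 in mRNA and from 2.88 to 4.39 in nascent RNA, with the highest values without WT culture 3. From pooled counts, KO over WT was 13.7 (9.28 to 20.9) in total RNA and 11.4 (5.39 to 29.0) in 4sU. Whereas the ratio of total RNA to 4sU of Slc25a31 was 0.272 in WT and 3.24 in KO, Slc25a24 had ratios of 1.68 (0.713 to 4.57) in WT and 2.01 (1.64 to 2.46) in KO. The counting interval of the WT ratio is wide, and the difference between the changes of the 2 genes was not tested. Slc25a24 lies on chromosome 3 from 109123149 to 109168457.

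Slc25a25, a paralog of Slc25a24, rose by 0.36 ± 0.10 in mRNA and 0.31 ± 0.11 in nascent RNA (edgeR, adjusted p = 0.00129 and 0.0179), and the nascent call was lost in 6 of 19 alternatives. Slc25a3 fell by 0.36 ± 0.06 in mRNA and by 0.25 ± 0.06 in nascent RNA (adjusted p = 1.4e-07 and 0.00139). It was at 346, 359 and 361 scaled CPM in WT total RNA and at 273, 279, 282 and 271 in KO, and the groups did not overlap. Slc25a3, Slc25a4 and Slc25a5, the carriers that bring phosphate and ADP to ATP synthase and take ATP out, were all called lower in both assays. Of all tested genes, 21.0% were called lower in nascent RNA and 31.0% in mRNA. These carriers come from different functional groups, and Slc25a24 and Slc25a25, listed with Slc25a3, were called higher in both assays. Scaled by library size only, the nascent RNA of Slc25a3 differed by -0.04 (edgeR, adjusted p = 0.621), and in the paired run alone by -0.18 (adjusted p = 0.0776).

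Of the di- and tricarboxylate carriers, 3 of 4 were tested. Slc25a10, the dicarboxylate carrier, moved in opposite directions in the 2 assays. In 4sU it was at 21.6, 18.6 and 19.8 scaled CPM in WT and at 15.0, 16, 14.7 and 14.2 in KO. In total RNA it was at 13, 12 and 9.18 in WT and at 16.4, 17.1, 13.9 and 15.0 in KO. No KO culture overlapped with WT in either assay.

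Slc25a10 rose by 0.47 ± 0.15 in mRNA (edgeR, adjusted p = 0.00608) and by 0.88 ± 0.23 in stability (adjusted p = 0.00554). The nascent fall of 0.41 ± 0.17 (adjusted p = 0.0472) was close to the threshold and lost its call in 12 of 19 alternatives. Without WT culture 3 the rise in mRNA was 0.32 (adjusted p = 0.0980). Slc25a1, the citrate carrier that supplies cytosolic acetyl-CoA, had lower mRNA and stability. Its nascent RNA differed by 0.15 ± 0.10 (adjusted p = 0.236), while mRNA fell by 0.46 ± 0.07 (adjusted p = 1.9e-07) and stability by 0.61 ± 0.12 (adjusted p = 0.000307). Scaled CPM of Slc25a1 in total RNA were 110.1, 111 and 107 in WT and 85.7, 83.2, 72.1 and 77.1 in KO, again without overlap. Slc25a11, the oxoglutarate carrier, differed by 0.13 ± 0.07 in mRNA (adjusted p = 0.127) and was called higher when scaled by library size only (0.29, adjusted p = 0.000686).

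**Figure D4:**
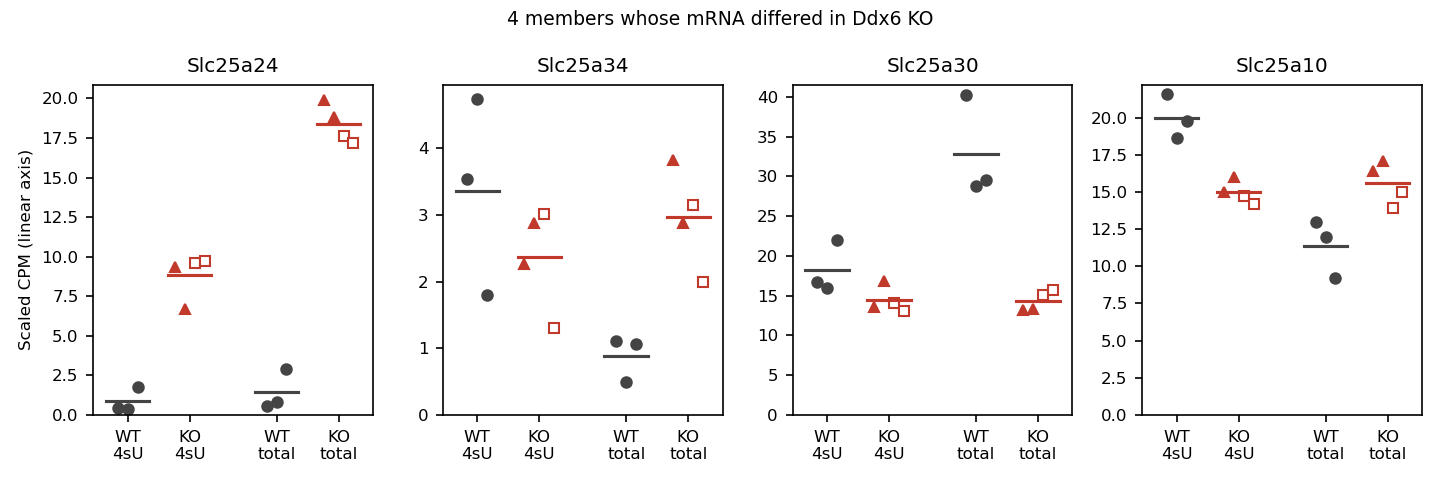
Scaled CPM on linear axes for 4 members in nascent RNA (4sU) and total RNA, with WT cultures as circles, clone 1 as filled triangles, clone 2 as open squares and group means as bars. Slc25a24 is higher in KO in both assays and Slc25a34 in total RNA. Slc25a30 is lower in KO total RNA, and Slc25a10 is lower in KO 4sU but higher in KO total RNA.

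Of 9 amino acid carriers, 8 were tested, with 3 called higher in nascent RNA and 2 higher and 2 lower in mRNA. Among all genes, 20.6% were called higher in nascent RNA, and 19.5% higher and 31.0% lower in mRNA. Slc25a13 and Slc25a12 are the aspartate/glutamate carriers of the malate-aspartate shuttle. Slc25a13 rose by 0.61 ± 0.07 in nascent RNA and by 0.32 ± 0.05 in mRNA (edgeR, adjusted p = 4.7e-10 and 8.8e-07), and its stability fell by 0.29 ± 0.09 (adjusted p = 0.0278), a call lost in 12 of 20 alternatives. Slc25a12 mRNA fell by 0.35 ± 0.10 (adjusted p = 0.00151) with a nascent difference of -0.07 ± 0.15. Slc25a44, a carrier of branched-chain amino acids, rose by 0.52 ± 0.12 in nascent RNA and 0.39 ± 0.10 in mRNA (adjusted p = 0.000419 and 0.000699).

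Slc25a38, the glycine carrier needed for heme synthesis, rose in nascent RNA only in part of the fits: the difference was 0.48 ± 0.19 (edgeR, adjusted p = 0.0338) with both runs, 0.14 in the single-end run alone (adjusted p = 0.682) and 1.16 in the paired run alone (adjusted p = 0.00263), and its mRNA differed by -0.12 ± 0.12. Slc25a18, a glutamate carrier, was counted 2, 1 and 5 times in WT total RNA and 0, 0, 2 and 0 times in KO. Its mRNA was called lower (-2.27 ± 0.98, adjusted p = 0.0482), but the groups overlap, the pooled ratio of 0.179 has a counting interval of 0.0185 to 0.897, and the call was lost in 10 of the 15 alternatives in which it was tested, among them the fit without WT culture 3 (-1.57, adjusted p = 0.309).

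Slc25a13, Slc25a18 and Slc25a26, the S-adenosylmethionine carrier, lie on chromosome 6, which as a whole stood apart. Over its 735 tested genes the median log2 difference was 0.53 in nascent RNA and 0.43 in mRNA, against -0.02 and -0.12 over the other 13783 genes, and 58.6% of its genes were called higher in each. The values were alike in both clones, at 0.41 in clone 1 and 0.45 in clone 2 for mRNA. Slc25a13 was at 0.61 in nascent RNA and 0.32 in mRNA, above and below these medians. Slc25a26 differed by 0.34 ± 0.21 in nascent RNA (edgeR, adjusted p = 0.199) and rose by 0.69 ± 0.16 in mRNA (adjusted p = 0.000199), with 0.53 in clone 1 alone and 0.84 in clone 2 alone. Slc25a18 was at -0.58 and -2.27, on the other side of 0. The part of the chromosome in these changes was not tested.

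Among nucleotide and cofactor carriers, 9 were tested, none was called in nascent RNA, and 1 rose and 1 fell in mRNA. The all-gene shares were 41.6% in nascent RNA, and 19.5% higher and 31.0% lower in mRNA. Slc25a36, a pyrimidine nucleotide carrier, was at 298, 286 and 286 scaled CPM in WT total RNA and at 198, 207, 217 and 211 in KO. The groups did not overlap. Its mRNA fell by 0.48 ± 0.06 (edgeR, adjusted p = 7.3e-10) and its stability by 0.48 ± 0.10 (adjusted p = 0.000269), with a nascent difference of 0.01 ± 0.08. Slc25a51, the carrier of NAD, and Slc25a32, a folate and FAD carrier, differed by 0.08 ± 0.09 and -0.07 ± 0.11 in mRNA and were not called.

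The carriers of acylcarnitine and glutathione, all 3 tested, did not move together. Slc25a20, the carnitine/acylcarnitine carrier that feeds fatty acids to oxidation, rose by 0.55 ± 0.12 in nascent RNA and 0.50 ± 0.07 in mRNA (edgeR, adjusted p = 0.000145 and 5.1e-08), with 82.4, 82.0 and 76.1 scaled CPM in WT total RNA and 122, 114, 112 and 106 in KO. Slc25a39 and Slc25a40 are paralogs linked to mitochondrial glutathione import, and they changed in opposite directions.

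Slc25a39 mRNA was at 296, 300.3 and 301 scaled CPM in WT and at 194, 194, 191 and 207 in KO, without overlap, and fell by 0.61 ± 0.06 (edgeR, adjusted p = 6.2e-14). Its nascent RNA differed by -0.14 ± 0.08 (adjusted p = 0.154) and its stability fell by 0.46 ± 0.10 (adjusted p = 0.000702). Slc25a40 was at 22.4, 20.6 and 24.3 scaled CPM in WT total RNA and at 29.9, 29.7, 37.2 and 29.8 in KO, again without overlap, and rose by 0.50 ± 0.11 (adjusted p = 0.000131). Its nascent RNA rose by 0.46 ± 0.15 (adjusted p = 0.0129), by 0.75 in the single-end run alone (adjusted p = 0.00404), and differed by 0.21 in the paired run alone (adjusted p = 0.464). It shares 10.3% of its 50-base stretches with the gene Gm5066, and its 4sU level in the paired run was 1.41 times that in the single-end run.

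Of the mitoferrins, which import iron for heme and iron-sulfur clusters, Slc25a28 mRNA fell by 0.30 ± 0.10 (edgeR, adjusted p = 0.00951) and Slc25a37 differed by -0.22 ± 0.12 (adjusted p = 0.148). Slc25a30, a carrier related to the uncoupling proteins, had one of the larger falls of the family. In total RNA it was at 40.2, 28.8 and 29.5 scaled CPM in WT and at 13.2, 13.3, 15.1 and 15.7 in KO, and the groups did not overlap. Its mRNA fell by 1.19 ± 0.12 (adjusted p = 4.2e-12) and its stability by 0.84 ± 0.22 (adjusted p = 0.00648), with a nascent difference of -0.35 ± 0.18 (adjusted p = 0.116). Without WT culture 1, the stability difference was -0.62 (adjusted p = 0.0921), with clone 2 alone it was -0.66 (adjusted p = 0.134) and in the paired run alone -0.51 (adjusted p = 0.335). The other tested relative of the uncoupling proteins, Slc25a14, differed by 0.28 ± 0.24 in mRNA.

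Slc25a46, which sits in the outer mitochondrial membrane and takes part in mitochondrial fission and lipid transfer, rose by 0.79 ± 0.15 in nascent RNA (edgeR, adjusted p = 1.6e-05) and by 0.33 ± 0.09 in mRNA (adjusted p = 0.00303), where the lowest KO culture lay below the highest of WT. Its stability differed by -0.47 ± 0.18 (adjusted p = 0.0784), which was called with the culture as a block (adjusted p = 0.0483). Without WT culture 2 the rise in mRNA was 0.24 (adjusted p = 0.0596).

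Among members without a firmly assigned substrate, 3 of 8 were tested. Slc25a34 was counted 6, 3 and 7 times in WT total RNA and 24, 22, 24 and 13 times in KO, without overlap. In 4sU it was counted 8, 13 and 5 times in WT and 8, 9, 10 and 5 times in KO, with overlap. Its mRNA rose by 1.71 ± 0.41 (edgeR, adjusted p = 0.000427) and its stability by 2.22 ± 0.62 (adjusted p = 0.0104).

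Slc25a34 was the tested member other than Slc25a31 with the largest difference in stability. Pooled counts of total RNA over 4sU gave 0.268 (0.134 to 0.519) in WT and 1.24 (0.817 to 1.93) in KO, so the WT ratio of Slc25a34 lay close to that of Slc25a31 (0.272). Without WT culture 2 the stability difference was 1.57 (adjusted p = 0.191), with clone 2 alone 2.18 (adjusted p = 0.0558) and in the single-end run alone 2.06 (adjusted p = 0.0619). Slc25a35 mRNA fell by 0.81 ± 0.29 (adjusted p = 0.0185), a call lost in 7 of the 18 alternatives in which it was tested. Of its 50-base stretches, 25.8% match other genes on either strand, most of all Rangrf. No annotated gene overlaps Slc25a35 on its own strand, and matches on the opposite strand were not set apart. Slc25a53 differed by 0.30 ± 0.39 in mRNA.

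The clones were compared with each other in a model with 3 genotypes. No member was called in nascent RNA, mRNA or stability (edgeR, 37 members each), against 0.172%, 0.296% and 0.00689% of all tested genes. DESeq2 and limma-voom called none either. At an unadjusted p below 0.05, 1 member differed in nascent RNA, 1 in mRNA and 0 in stability, against 6.54%, 6.61% and 4.04% of all genes.

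Before any change in KO, members differed widely in the ratio of total RNA to 4sU in WT. On the log2 scale, with 0.5 CPM added, the median over 38 members was 0.42, against 0.07 over all tested genes, for which the middle 50% ranged from -1.11 to 0.87. The ratio was above the median of all genes for 23 members, in the top 25% of genes for 11 and in the bottom 25% for 4. The highest were Slc25a17, a peroxisomal carrier of CoA, FAD and NAD, at 1.81 ± 0.18 (SD, n = 3), Slc25a39 at 1.79 ± 0.10, Slc25a13 at 1.72 ± 0.03, Slc25a15, an ornithine carrier of the urea cycle, at 1.49 ± 0.11 and Slc25a20 at 1.35 ± 0.23.

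The lowest ratios were those of Slc25a2, an ornithine carrier paralogous to Slc25a15, at -2.61 ± 0.78, Slc25a18 at -2.08 ± 1.06, Slc25a53 at -1.83 ± 0.31, Slc25a34 at -1.42 ± 0.93 and Slc25a31 at -0.94 ± 0.95. Of the 37 neighbouring pairs in this order, 36 overlapped over the WT cultures, so only the broad order is resolved. The lowest 5 were counted at most 10 times in any WT total RNA library, where 0.5 CPM weighs on the ratio. Slc25a4 stood at 1.01 ± 0.07 and Slc25a5 at 0.70 ± 0.20. For Slc25a5 the ratio depended on the run, at 1.22 with single-end 4sU reads and 0.21 with read pairs, which placed it in percentile 84.9 or 50.8 of all genes, whereas Slc25a4 was at 0.88 and 1.19.

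In KO, the ratio of Slc25a31 was 1.59 ± 0.54 (SD, n = 4), in percentile 95.5 of all tested genes against 27.3 in WT. The WT value rests on 1, 1 and 3 total RNA counts, and the family was selected on the total RNA counts of this gene. Slc25a10 moved from percentile 29.7 to 51.1 and Slc25a34 from 20.6 to 59.2. In the other direction, Slc25a30 moved from percentile 73.7 to 49.1 and Slc25a1 from 77.4 to 61.7. Slc25a17, Slc25a39, Slc25a13, Slc25a15 and Slc25a20, the members with the highest ratios in WT, were all at or above percentile 88.8 in KO.

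**Figure D5:**
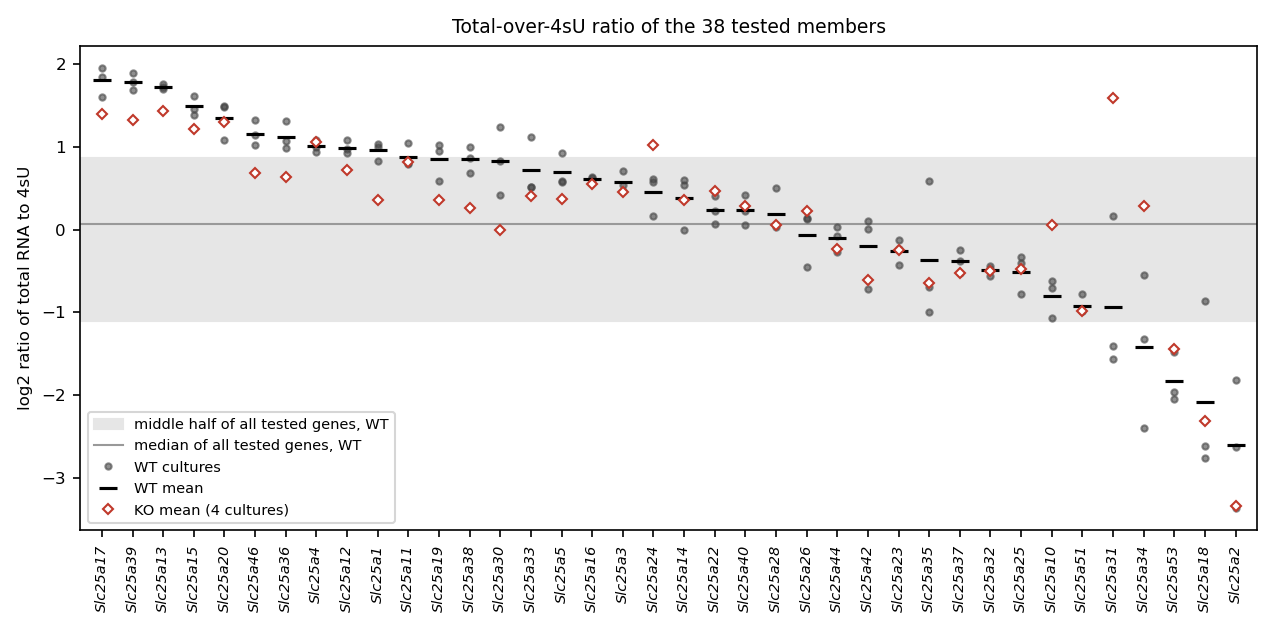
Log2 ratio of total RNA to 4sU for the 38 tested members, ordered by the WT mean. Grey circles are the 3 WT cultures, black bars their mean, open red diamonds the KO mean over 4 cultures, and the grey band and line the middle 50% and median of all tested genes in WT. Slc25a31 has means of -0.94 in WT and 1.59 in KO. The family was selected on its total RNA counts, which were 1, 1 and 3 in WT. Among the other members, the gap between WT and KO means is widest for Slc25a34 (-1.42 and 0.29).

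Related lists outside the symbol rule were examined in the same fits, in which 31.0% of all genes were called lower and 19.5% higher in mRNA, with a median of -0.10. Among Slc25 proteins under other symbols, the mitochondrial outer-membrane insertase Mtch2, its paralog Mtch1 and the uncoupling protein Ucp2 were tested, and all 3 fell in mRNA, by 0.51 ± 0.06, 0.45 ± 0.07 and 0.23 ± 0.08 (edgeR, adjusted p = 2.1e-10, 8.1e-07 and 0.0158). Ucp1 and Ucp3 had at most 3 counts in any total RNA library. Of 12 genes of the machinery that imports carrier proteins, 6 fell and 1 rose in mRNA, with a median of -0.15. The translocase receptor Tomm20 fell by 0.61 ± 0.06 (adjusted p = 9.0e-13), and Agk, a subunit of the carrier translocase of the inner membrane, rose by 0.31 ± 0.13 (adjusted p = 0.0430). Of 19 other mitochondrial transporters and channels tested, 8 fell and 4 rose in mRNA, with a median of -0.22. The outer-membrane channels Vdac1, Vdac2 and Vdac3 fell by 0.44 ± 0.05, 0.41 ± 0.06 and 0.31 ± 0.08 (adjusted p = 5.2e-10, 1.0e-08 and 0.00105), whereas Micu2, a regulator of the calcium uniporter, rose by 0.92 ± 0.18 (adjusted p = 2.4e-05).

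Slc25a31 is one of a group of germline genes that are silenced outside the germ line by promoter methylation or by E2F6, a repressor of the E2F family. Of the 16 other listed genes of that kind that were tested, 13 rose and 0 fell in mRNA, with a median of 1.21, against 19.5% of all genes called higher and a median of -0.10. In nascent RNA 9 rose, with a median of 0.73, against 20.6% of all genes called higher. In stability 1 was called higher, with a median of 0.16, against 3.78% of all genes called higher. Of the 16, Taf7l and Tuba3b passed the filter through their KO libraries alone. In WT they averaged 0.983 and 0.564 CPM in total RNA and 0.858 and 0.248 CPM in 4sU. The shares and medians of the list thus include genes admitted by their KO level. Syce1, Tex11 and Ddx4, which act in meiosis and in the germ line, rose by 2.16 ± 0.12, 1.54 ± 0.11 and 1.81 ± 0.12 in mRNA (edgeR, adjusted p = 6.8e-22, 3.6e-18 and 5.1e-20) and by 2.23 ± 0.23, 1.74 ± 0.24 and 2.08 ± 0.27 in nascent RNA. Other genes of the list differed little. In total RNA of WT and KO, Dazl averaged 40.8 and 44.0 CPM, Hormad1 29.6 and 32.0 and Smc1b 9.96 and 11.9. The list was put together with earlier results of these data known and is not independent evidence of its direction.

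The promoter of Slc25a31, taken from RefSeq as 250 bases before and 50 bases after the gene start on GRCm38.p6, holds letters of 2 motifs known from such genes, TTTCCCGC for the E2F family and the E-box CACGTG. They are shown in capitals in windows at chr3:40708878-40708907 and chr3:40708766-40708795, both on the plus strand. The motifs begin 18 bases after and 93 bases before the RefSeq start, which is not the Gencode start of 40708855 given above.
Slc25a31 E2F: tcagcgcccgcTTTCCCGCcagggtaaagc
Slc25a31 E-box: cgcaactggaaaCACGTGttatggtcacat
Searched on both strands, TTTCCCGC was found in the promoters of 334 of 27025 genes (1.24%) and CACGTG in those of 2187 (8.09%), while 28 genes (0.104%) held both in 1 promoter. Of the 36 members with a promoter in the table, 1 held TTTCCCGC, which was Slc25a31, and 7 held CACGTG. The motifs were picked after this promoter had been read, so these shares describe it and test nothing.

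By the correlation of log2 values over the 14 libraries, the protein-coding genes whose pattern was most like that of Slc25a31, of 12109 compared, were Ecel1 (Pearson's r = 0.945), Axl (0.941), H1f0 (0.940), Loxl4 (0.937) and Ikbke (0.931). The libraries fall into 4 groups by genotype and assay, and the correlation describes the order of these groups. The values of Slc25a31 include the total RNA counts on which the family was selected. The ranking thus favours genes that are high in KO total RNA and tests nothing. In total RNA, Ecel1 stood at 1.68 CPM in WT and 10.3 in KO, Axl at 4.10 and 10.7, H1f0 at 60.8 and 139, Loxl4 at 2.56 and 38.9 and Ikbke at 0.936 and 8.42.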

How the data were processed

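The data were raw counts per gene that the authors deposited for 4sU and total RNA of 7 mouse ESC cultures, without normalization, with gene lengths beside them. Per the labels and the study's methods, reads were trimmed with cutadapt 1.14, mapped to mm10 with STAR 2.5.3a keeping unique matches, and counted by strand with featureCounts 1.5.3 on the basic Gencode M14 annotation. Counts from both runs of a 4sU library were added. The 92 spike-in rows held 0 counts, so no absolute scaling was possible. Symbols, positions and transcripts came from Gencode M21 of the same build, and promoters from RefSeq.

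The filter kept genes reaching 3 CPM in 3 or more libraries, and the test was made with edgeR 4.0.16 (quasi-likelihood, robust, TMM over all 14 libraries) in R 4.3.3, with genotype, assay and their interaction, which tests stability. P-values were adjusted by Benjamini-Hochberg over all tested genes, and called means below 0.05. The code was tested on simulated data. CPM per kilobase used the deposited lengths. Intervals of pooled counts are exact (scipy 1.17.1) and cover counting error only. Cultures are separate samples by their labels, and nothing states that they came from separate thaws, so p-values measure the spread between these samples. No pair of libraries was identical.

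The 4sU and total RNA of a culture come from 1 extract, and their deviations from the group means correlated with 0.00384 to 0.117. Samples with the same label number correlated with -0.0579 to 0.132 in 4sU and -0.0339 to 0.129 in total RNA, so that numbers were not taken as pairs.

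Alternatives were DESeq2 1.42.0, limma-voom (limma 3.58.1), other scalings, other filters, each run, each clone, blocks by culture or number, each culture left out and a fold threshold. Members and gene lists were chosen with earlier results of these data known. Members were named when called (at most 10 per contrast, by size), on chromosome 6, or extreme in level or ratio. Slc25a11, Slc25a12, Slc25a14, Slc25a25, Slc25a28, Slc25a32, Slc25a37 and Slc25a51 were added after their values were seen to complete the functional groups.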

Additional observations from a re-analysis of the deposited data

Results flagged for a closer look

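Among the 4 KO cultures, a gap test at Dixon's 95% critical value was made for 4sU, total RNA and their log2 ratio of each tested member, 114 groups in all, of which chance alone would mark about 5.70. It marked 7. On the scale of log2 scaled CPM, these were Slc25a17 in total RNA of clone 2 culture 2 (5.60, next value 5.79), Slc25a18 in total RNA of clone 2 culture 1 (-0.39, with 2 counts against 0 in the others), Slc25a24 in 4sU of clone 1 culture 2 (2.85, next value 3.30), Slc25a40 in total RNA of clone 2 culture 1 (5.24, next value 4.93) and Slc25a44 in 4sU of clone 2 culture 2 (5.34, next value 5.58). As log2 ratios of total RNA to 4sU, they were Slc25a35 in clone 1 culture 1 (-0.04, next value -0.79) and Slc25a51 in clone 1 culture 2 (-1.21, next value -0.94). For Slc25a24 the marked culture still lay above every WT culture.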

How the results depend on the processing

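No called change of a named member reversed its direction under any alternative. Of the members called, 13 of 21 in mRNA and 6 of 12 in nascent RNA kept their call in all 19 alternative fits, and 3 of 8 in stability (Slc25a1, Slc25a36 and Slc25a39) did so in all 20. Slc25a24 in both assays and Slc25a34 in mRNA kept it in the 18 fits in which they were tested and did not pass the filter of 3 CPM in every library of 1 assay. With an absolute log2 fold change above 1 required as well, 4 members were called in mRNA (from 21), 1 in nascent RNA (from 12) and 1 in stability (from 8). DESeq2 called 5 members in stability and gave no adjusted p for Slc25a34, and the single-end run alone and clone 2 alone called 4 each. Leaving out 1 culture gave 18 to 21 calls in mRNA, 8 to 12 in nascent RNA and 6 to 8 in stability. The cause was not tested. With the culture as a replicate block, 9 members were called in stability, and with the number as a block 22 in mRNA, 12 in nascent RNA and 9 in stability. The block by number added Slc25a2 in mRNA, and both blocks added Slc25a46 in stability. Between clones, no member was called by edgeR, DESeq2 or limma-voom. For Slc25a24, the nascent difference in the re-sequencing run alone was 8.15, where WT had 0 counts against 50 in KO, so its size depends on the prior count.

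The median WT log2 ratio of total RNA to 4sU was 0.49 with 0.1 CPM added and 0.26 with 2 CPM, against 0.42. By run, chosen after seeing the data, it was 0.34 with single-end and 0.51 with re-sequencing reads. In 4sU, Slc25a4 had 89.3 and 72.3 CPM per kilobase in the single-end and re-sequencing run of WT and 80.4 and 63.1 in KO. Slc25a5 had 72.6 and 146 in WT and 61.0 and 124 in KO. Depth limits Slc25a31, Slc25a18, Slc25a34, Slc25a53 and Slc25a2 most, which had at most 10 counts in any WT total RNA library.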
